A study of Homo sapiens with 6 samples.

Results

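Troponin is the calcium switch of striated muscle, and its subunits are encoded by a small family of genes with fast skeletal, slow skeletal and cardiac members. The 8 genes of the family described here are TNNC1, TNNC2, TNNI1, TNNI2, TNNI3, TNNT1, TNNT2 and TNNT3. They were taken by symbol, and their 18 RefSeq transcript rows were summed per gene, which makes them 8 of the 23540 genes with a symbol in the count table. All 8 have at least 1 row, and 7 of the 8 passed the filter on low counts. TNNI3 did not, with 1 read pair over the 6 libraries together.

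The libraries are polyadenylated RNA from primary human dermal fibroblasts of 1 line, sequenced in 3 groups with 2 libraries each. In the VP64-MyoD group the cells carried a Tet-ON lentivirus encoding mouse MyoD with the VP64 transcriptional activation domain joined to its N-terminus through a serine glycine linker. In the WT-MyoD group the same vector encoded mouse MyoD without that domain. MyoD is the basic helix-loop-helix factor that starts skeletal muscle gene expression in many non-muscle cells. Both vectors made dsRed-Express2 from the same message through a ribosomal skipping peptide. Both transduced groups went through puromycin selection, reached confluence, and then received doxycycline at 3 µg/mL for the time to harvest, which was at day 10. The third group was untreated fibroblasts, and the labels do not say whether these were transduced, selected or given doxycycline. Transduction, selection, doxycycline and MyoD therefore cannot be told apart in a comparison with untreated cells, while the VP64-MyoD and WT-MyoD groups differ by the VP64 domain and by the level of the transgene. The submitters describe the experiments as done in biological duplicate; with a single line, a p-value here covers only variation among its cultures.

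In a muscle fibre, troponin sits on the thin filament beside actin and tropomyosin. Troponin C binds calcium, troponin I holds the actin-myosin interaction in check at low calcium, and troponin T anchors the complex to tropomyosin. TNNC2, TNNI2 and TNNT3 encode the fast skeletal forms, and TNNI1 and TNNT1 the slow skeletal forms of troponin I and T. TNNC1 encodes the troponin C shared by slow fibres and heart, TNNI3 the adult cardiac troponin I, and TNNT2 the cardiac troponin T. TNNT2 and TNNI1 are also expressed in developing skeletal muscle.

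MyoD binds E-boxes, whose letters are CANNTG, so the RefSeq promoter windows of the members with an entry in the promoter table (3 of the 8) are shown here, beside the expression values that follow. Each runs from 250 bases before to 50 bases after the gene's start in assembly GRCh38.p14, is written 5′ to 3′ along the gene's strand, and has its E-boxes in capitals.
TNNT2 promoter, chr1:201377631-201377930, minus strand: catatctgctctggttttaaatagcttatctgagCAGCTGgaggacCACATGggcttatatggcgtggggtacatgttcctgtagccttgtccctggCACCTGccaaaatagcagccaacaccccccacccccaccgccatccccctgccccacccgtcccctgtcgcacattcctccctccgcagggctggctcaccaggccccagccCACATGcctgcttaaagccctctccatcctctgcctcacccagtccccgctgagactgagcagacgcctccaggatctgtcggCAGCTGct
TNNT1 promoter, chr19:55149157-55149456, minus strand: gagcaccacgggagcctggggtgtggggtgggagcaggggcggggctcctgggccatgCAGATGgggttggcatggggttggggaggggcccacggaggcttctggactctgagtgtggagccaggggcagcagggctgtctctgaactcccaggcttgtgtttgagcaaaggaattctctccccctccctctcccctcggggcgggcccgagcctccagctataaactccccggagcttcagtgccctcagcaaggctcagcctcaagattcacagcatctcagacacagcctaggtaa
TNNI3 promoter, chr19:55157683-55157982, minus strand: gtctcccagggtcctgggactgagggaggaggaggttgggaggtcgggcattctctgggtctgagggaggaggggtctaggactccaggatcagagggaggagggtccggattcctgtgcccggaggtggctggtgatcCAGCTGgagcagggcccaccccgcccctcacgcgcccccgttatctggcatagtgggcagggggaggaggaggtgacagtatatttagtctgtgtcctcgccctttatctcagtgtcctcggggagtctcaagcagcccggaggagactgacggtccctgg

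The TNNT2 window held 5 E-boxes, of which 4 lay before the start, while the TNNT1 and TNNI3 windows held 1 each. Any CANNTG was present in 68.7% of the 35116 promoter windows of the same length. CAGCTG occurs in the TNNT2 and TNNI3 windows and in 17.9% of all windows, and CAGGTG, written on the opposite strand, occurs in the TNNT2 window and in 20.6% of all windows. The TNNT2 window also held the MCAT core CATTCC, found in 14.0% of windows, and the TNNT1 window held TATAAA at position -29, found in 11.5% of windows. Both strands were searched, CAGCTG and CAGGTG are special cases of CANNTG, and no match to the MEF2 site or the CArG box was found in these 3 windows, against 2.99% and 1.29% of all windows. TNNI3, whose window holds an E-box, had 1 read pair in all 6 libraries, and TNNT1, which also has 1 E-box, had 18290 read pairs in the VP64-MyoD group. A match is a description of the letters, and binding was not measured.

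The libraries held 44995262 and 49384350 counts in VP64-MyoD cells, 52860140 and 40997586 in WT-MyoD cells, and 53804224 and 48142658 in untreated cells. Each read pair was counted as 2, so values below are given either as read pairs or as depth-normalized CPM scaled by TMM factors. The mouse Myod1 transgene row stood at 115.5 and 96.5 CPM in VP64-MyoD cells, 757.5 and 1015 CPM in WT-MyoD cells, and 5.09 and 1.05 CPM in untreated cells. The transgene was thus lower in both VP64-MyoD libraries than in both WT-MyoD libraries. Untreated replicate 1 held 127 transgene read pairs and 58 troponin read pairs, and untreated replicate 2 held 23 and 27. The part of those transgene reads in the untreated troponin values was not tested. Skeletal muscle markers (8 of 8 in the fit) summed to 2953 and 2539 CPM in VP64-MyoD cells, 322.9 and 296.7 CPM in WT-MyoD cells, and 4.21 and 4.14 CPM in untreated cells. In bulk RNA, more muscle-like cells and more troponin RNA per cell cannot be told apart. All fibroblast markers (10 of 10) were detected in every group, with sums of 33740 and 31170 CPM in VP64-MyoD cells, 29770 and 33950 CPM in WT-MyoD cells, and 43410 and 45830 CPM in untreated cells.

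Troponin transcripts made up 0.167% and 0.159% of all counts in VP64-MyoD cells, 0.0439% and 0.0383% in WT-MyoD cells, and 0.000216% and 0.000112% in untreated cells. These shares stand for 37617 and 39260 read pairs in VP64-MyoD cells, 11595 and 7857 in WT-MyoD cells, and 58 and 27 in untreated cells. All 7 tested members were higher in VP64-MyoD than in untreated cells, in WT-MyoD than in untreated cells and in VP64-MyoD than in WT-MyoD cells, by edgeR's quasi-likelihood test with a Benjamini-Hochberg adjusted p under 0.05 taken over all 15778 genes and unnamed transcripts in the fit. Among all of these, 33.0% were higher in VP64-MyoD than in untreated cells, 25.7% were higher in WT-MyoD than in untreated cells, and 28.4% were higher in VP64-MyoD than in WT-MyoD cells. The shares that were lower in these comparisons were 30.0%, 22.2% and 28.2%. TNNI2 was among the 7 only because its VP64-MyoD libraries passed the filter on low counts. Its direction in the comparisons of VP64-MyoD was thus fixed in advance, and TNNI3 was not tested. The median log2 fold change of the 7 members was 9.90 for VP64-MyoD over untreated, 7.59 for WT-MyoD over untreated and 3.65 for VP64-MyoD over WT-MyoD cells, while the medians over all features tested were 0.03, 0 and 0.02. For WT-MyoD against untreated cells, between 5 and 7 of the 7 members were called under the alternatives tried, since TNNC2 and TNNI2 lay near the threshold.

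**Figure D1:**
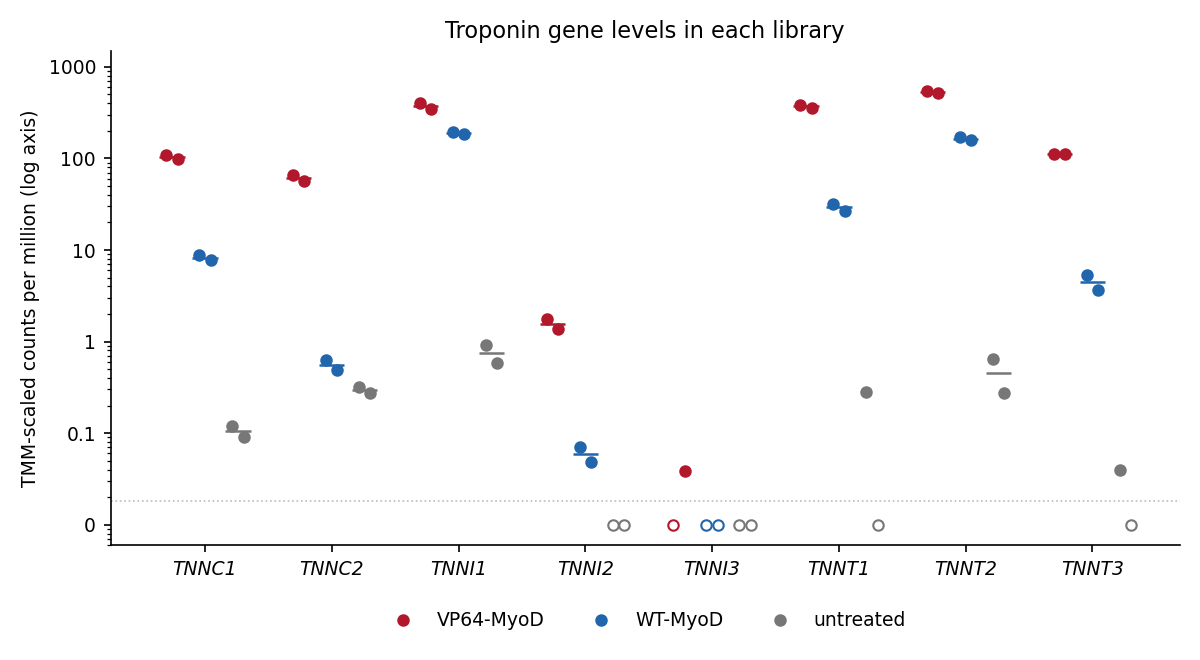
TMM-scaled CPM of the 8 troponin genes on a log axis, with 1 point per library for the VP64-MyoD, WT-MyoD and untreated groups and a bar at the mean where both libraries have reads; open points below the dotted line are libraries with 0 read pairs. TNNT2 has the highest mean in VP64-MyoD cells, 532.5 CPM. The WT-MyoD points of TNNI2 rest on 2 and 1 read pairs, and TNNI3 has 1 read pair in 1 library.

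Troponin C was the subunit in which the fast gene differed most between the MyoD forms. TNNC1, on chromosome 3, the calcium sensor of slow fibres and heart, had 2561 and 2588 read pairs in VP64-MyoD cells, 248 and 160 in WT-MyoD cells, and 3 and 2 in untreated cells. The groups did not overlap, at 104.4 ± 8.0 CPM in VP64-MyoD cells, 8.27 ± 0.69 CPM in WT-MyoD cells and 0.106 ± 0.021 CPM in untreated cells (SD, n = 2 each). The log2 fold change of TNNC1 was 9.90 ± 0.16 (SE) for VP64-MyoD over untreated cells, with an edgeR adjusted p of 1.61e-16. The untreated group held 5 read pairs, and the ratio of read pairs per depth was 977.3 with a 95% counting interval from 418.5 to 3011, wider than that SE. The log2 fold change was 6.25 ± 0.22 for WT-MyoD over untreated cells (edgeR adjusted p = 1.48e-12) and 3.65 ± 0.09 for VP64-MyoD over WT-MyoD cells (edgeR adjusted p = 8.07e-14).

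TNNC2, on chromosome 20, encodes the troponin C of fast fibres. It had 1523 and 1504 read pairs in VP64-MyoD cells, against 18 and 10 in WT-MyoD cells and 8 and 6 in untreated cells. Both VP64-MyoD libraries were far above the rest, and WT-MyoD lay just above untreated, at 61.4 ± 5.7 CPM in VP64-MyoD cells, 0.561 ± 0.105 CPM in WT-MyoD cells and 0.297 ± 0.034 CPM in untreated cells (SD, n = 2 each). VP64-MyoD exceeded untreated cells by a log2 fold change of 7.67 ± 0.16 (edgeR adjusted p = 1.5e-15) and WT-MyoD cells by 6.74 ± 0.14 (edgeR adjusted p = 2.1e-14). The second value was the highest of the 7 tested members in its comparison. Against the 14 untreated read pairs, the 95% counting interval for VP64-MyoD ran from 122.1 to 375.8-fold. WT-MyoD exceeded untreated cells by 0.93 ± 0.31 with an edgeR adjusted p of 0.0226. That call rests on 28 against 14 read pairs, a ratio of 1.92 with a 95% counting interval from 0.978 to 3.95. It was lost in 6 of 16 alternatives. They included the fits on read pairs in place of reads (edgeR adjusted p = 0.0849), on only the 2 groups (edgeR adjusted p = 0.104) and by voom (limma adjusted p = 0.152). The call was also lost without WT-MyoD replicate 1, untreated replicate 1 or untreated replicate 2.

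Troponin I reads came almost entirely from the slow gene. TNNI1, on chromosome 1, the slow skeletal inhibitory subunit, had 9350 and 9140 read pairs in VP64-MyoD cells, 5461 and 3770 in WT-MyoD cells, and 23 and 13 in untreated cells. This was 375.4 ± 37.5 CPM in VP64-MyoD cells, 188.1 ± 6.7 CPM in WT-MyoD cells and 0.756 ± 0.234 CPM in untreated cells (SD, n = 2 each), with no overlap between the groups. TNNI1 rose over untreated cells by a log2 fold change of 8.93 ± 0.13 with VP64-MyoD (edgeR adjusted p = 6.88e-17) and of 7.94 ± 0.13 with WT-MyoD (edgeR adjusted p = 7.74e-16). The TNNI1 difference between VP64-MyoD and WT-MyoD cells, 1.00 ± 0.08 (edgeR adjusted p = 3.88e-08), was the lowest of the 7 members.

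TNNI2, the fast skeletal troponin I gene on chromosome 11, had 41 and 36 read pairs in VP64-MyoD cells, 2 and 1 in WT-MyoD cells, and 0 and 0 in untreated cells. Both VP64-MyoD libraries, at 1.76 and 1.37 CPM, lay above both WT-MyoD libraries, at 0.0706 and 0.0486 CPM. With the untreated group set to a floor of 3 read pairs in all, TNNI2 was at least 24.4-fold higher in VP64-MyoD than in untreated cells (edgeR adjusted p = 5.5e-07). The ratio of VP64-MyoD to WT-MyoD was 25.4, with a 95% counting interval from 8.36 to 125.7 (edgeR adjusted p = 3.72e-06). The 3 read pairs of the WT-MyoD group are no more than that floor, so no fold over untreated cells is given. The edgeR adjusted p of TNNI2 for WT-MyoD over untreated, 0.0452, passed the threshold, but the call was lost in 8 of 15 alternatives. Among them were read pairs in place of reads (edgeR adjusted p = 0.0963) and a replicate block (edgeR adjusted p = 0.056).

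TNNI3, the adult cardiac troponin I gene on chromosome 19, had 1 read pair in VP64-MyoD replicate 2 and 0 in each of the other 5 libraries. A count of 0 allows up to 3 read pairs, or between 0.106 and 0.146 CPM depending on the library, so a lower level was not detectable at this depth. Of 13 cardiac markers, MYL7, MYBPC3, NKX2-5 and GATA4 were at 0 in all 6 libraries. The summed cardiac list stood at 23.5 and 23.8 CPM in VP64-MyoD cells, 35.6 and 34.6 CPM in WT-MyoD cells, and 33.5 and 32.5 CPM in untreated cells. Most of that sum was TBX5, with 16.7 ± 0.5 CPM in VP64-MyoD cells, 23.3 ± 0.7 CPM in WT-MyoD cells and 22.5 ± 1.4 CPM in untreated cells (SD, n = 2 each), and HAND2, with 3.89 ± 0.27 CPM in VP64-MyoD cells, 9.61 ± 0.59 CPM in WT-MyoD cells and 7.04 ± 0.83 CPM in untreated cells. Both are transcription factors of the developing heart and limb. TBX20, another cardiac transcription factor, had 2.71 and 2.52 CPM in VP64-MyoD cells, 1.59 and 2.53 CPM in WT-MyoD cells, and 2.21 and 2.04 CPM in untreated cells, and its difference passed the test in none of the 3 comparisons (lowest edgeR adjusted p = 0.18). Over all features, 30.0% were lower in VP64-MyoD than in untreated cells. In WT-MyoD against untreated cells 25.7% were higher and 22.2% lower. Of the 4 cardiac markers in the fit, 3 were lower in VP64-MyoD than in untreated cells by edgeR. In WT-MyoD against untreated cells 1 (HAND2) was higher and 1 (PLN, the calcium pump regulator phospholamban) lower. The HAND2 call was lost without untreated replicate 1.

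Troponin T had the most read pairs of the subunits in all 4 MyoD libraries, and it included a gene named for the heart. TNNT2, the cardiac troponin T gene on chromosome 1, had 12666 and 13639 read pairs in VP64-MyoD cells, 4804 and 3293 in WT-MyoD cells, and 16 and 6 in untreated cells. Its levels of 532.5 ± 16.9 CPM in VP64-MyoD cells, 164.9 ± 6.7 CPM in WT-MyoD cells and 0.457 ± 0.261 CPM in untreated cells (SD, n = 2 each) did not overlap between groups. The log2 fold change over untreated cells was 10.14 ± 0.15 with VP64-MyoD (edgeR adjusted p = 5.4e-17) and 8.45 ± 0.15 with WT-MyoD (edgeR adjusted p = 8.11e-16). Between VP64-MyoD and WT-MyoD it was 1.69 ± 0.08 (edgeR adjusted p = 1.2e-10). Without untreated replicate 1 the TNNT2 value over untreated cells was 10.91 for VP64-MyoD and 9.22 for WT-MyoD.

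TNNT1, the slow skeletal troponin T gene on chromosome 19, had 8881 and 9409 read pairs in VP64-MyoD cells, 911 and 547 in WT-MyoD cells, and 7 and 0 in untreated cells. All of its untreated read pairs were in replicate 1. TNNT1 averaged 370.4 ± 16.0 CPM in VP64-MyoD cells and 29.4 ± 3.9 CPM in WT-MyoD cells (SD, n = 2 each), a log2 fold change of 3.65 ± 0.13 (edgeR adjusted p = 2.13e-12). Over untreated cells it was higher by 11.26 ± 0.23 with VP64-MyoD (edgeR adjusted p = 1.72e-15) and by 7.60 ± 0.27 with WT-MyoD (edgeR adjusted p = 1.59e-12). The 95% counting interval against those 7 untreated read pairs ran from 1203 to 6169-fold for VP64-MyoD and from 96.9 to 498.5-fold for WT-MyoD. Without untreated replicate 2 the log2 values became 10.35 for VP64-MyoD and 6.70 for WT-MyoD. Without untreated replicate 1 the untreated level was 0 and the fitted values, 17.12 for VP64-MyoD and 13.47 for WT-MyoD, are no bounds. Against 3 read pairs in replicate 2, TNNT1 was at least 2712-fold higher in VP64-MyoD and at least 218.8-fold higher in WT-MyoD cells.

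TNNT3, the fast skeletal troponin T gene on chromosome 11, had 2595 and 2943 read pairs in VP64-MyoD cells, 151 and 76 in WT-MyoD cells, and 1 and 0 in untreated cells. It averaged 111.9 ± 0.5 CPM in VP64-MyoD cells and 4.51 ± 1.16 CPM in WT-MyoD cells (SD, n = 2 each), and the log2 fold change between them was 4.61 ± 0.12 (edgeR adjusted p = 1.8e-13). Against the single untreated read pair, the ratio was 5256 for VP64-MyoD (95% counting interval 942.9 to 207600, edgeR adjusted p = 1.61e-15). For WT-MyoD it was 218.1 (interval 38.8 to 8650, edgeR adjusted p = 2.81e-10). With untreated replicate 1 left out, TNNT3 was at least 821.2-fold higher in VP64-MyoD and at least 34.1-fold higher in WT-MyoD cells. With untreated replicate 2 left out, its fitted log2 value was 11.35 for VP64-MyoD and 6.75 for WT-MyoD, against 12.19 and 7.59 with both replicates.

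**Figure D2:**
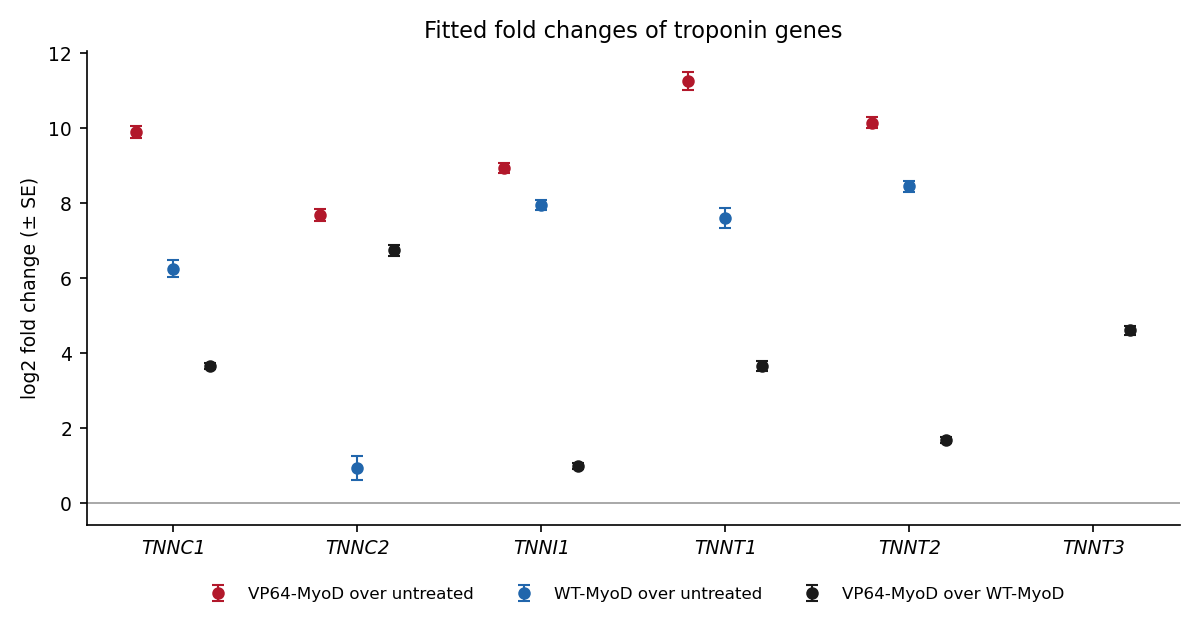
Log2 fold changes (points) with standard errors (bars) for VP64-MyoD over untreated, WT-MyoD over untreated and VP64-MyoD over WT-MyoD cells, from 1 fit over all 6 libraries; TNNI2 and the TNNT3 values over untreated are left out because their lower group held 3 or fewer read pairs. TNNC2 has the lowest value for WT-MyoD over untreated, 0.93, and the highest for VP64-MyoD over WT-MyoD, 6.74. The bars over untreated cells are narrower than the counting intervals in the text, which rest on few untreated read pairs.

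The genes were also put in order by level per kilobase of transcript. In VP64-MyoD cells TNNT2 came first at 483.9 CPM per kb, then TNNT1 at 362.7, TNNC1 at 146.3, TNNT3 at 98.0, TNNC2 at 86.5, TNNI1 at 69.3, TNNI2 at 2.14 and TNNI3 at 0.0227. In that group the libraries of no neighbouring pair in this order overlapped. In WT-MyoD cells the order was TNNT2 at 149.9 CPM per kb, TNNI1 at 34.8, TNNT1 at 28.8, TNNC1 at 11.6, TNNT3 at 3.95, TNNC2 at 0.790, TNNI2 at 0.0816 and TNNI3 at 0, again without overlap between the tested neighbours. In untreated cells the levels were led by TNNC2 at 0.418 CPM per kb and TNNT2 at 0.415, whose libraries overlapped, and TNNC1, TNNI1 and TNNT1 followed at 0.148, 0.140 and 0.137, also overlapping. The place of TNNI1 depends on the transcript used, since its matched transcript has 5413 bases and a coding part of 561 bases. Per kilobase of coding sequence TNNI1 came first, at 669.1 CPM in VP64-MyoD cells, where its libraries overlapped those of TNNT2 at 615.8 CPM, and at 335.4 CPM in WT-MyoD cells, where TNNT2 stood at 190.7 CPM.

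Within each subunit, the fast gene took a larger part in VP64-MyoD than in WT-MyoD cells. TNNC2 gave 37.3% and 36.7% of troponin C read pairs in VP64-MyoD cells, against 6.77% and 5.88% in WT-MyoD cells. The exact binomial 95% intervals were 35.8 to 38.8% and 35.3 to 38.2% in VP64-MyoD cells, against 4.06 to 10.5% and 2.86 to 10.5% in WT-MyoD cells. In untreated cells TNNC2 gave 72.7% and 75.0% of only 11 and 8 read pairs. TNNT3 gave 10.7% and 11.3% of troponin T read pairs in VP64-MyoD cells, against 2.57% and 1.94% in WT-MyoD cells. TNNI2 gave 0.437% and 0.392% of troponin I read pairs in VP64-MyoD cells, against 0.0366% and 0.0265% in WT-MyoD cells, where the share rests on 2 and 1 read pairs.

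The slow gene TNNT1 also took a larger part, 36.8% and 36.2% of troponin T read pairs in VP64-MyoD cells against 15.5% and 14.0% in WT-MyoD cells. TNNT2 gave the balance, 52.5% in each VP64-MyoD library against 81.9% and 84.1% in the WT-MyoD libraries. Shares within a subunit add up to the whole, so those of its genes are not independent results. For TNNC1, TNNC2, TNNI1, TNNI2, TNNT1, TNNT2 and TNNT3 the shares of the VP64-MyoD and WT-MyoD libraries did not overlap. The two-sided exact permutation p for each was 0.333, the smallest that 2 libraries against 2 can give. Weighting each gene by transcript length moved the TNNC2 shares to 37.4% and 36.9% in VP64-MyoD cells, and the TNNI2 shares to 3.14% and 2.83%, because of the long TNNI1 transcript. Intervals here cover counting error only.

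**Figure D3:**
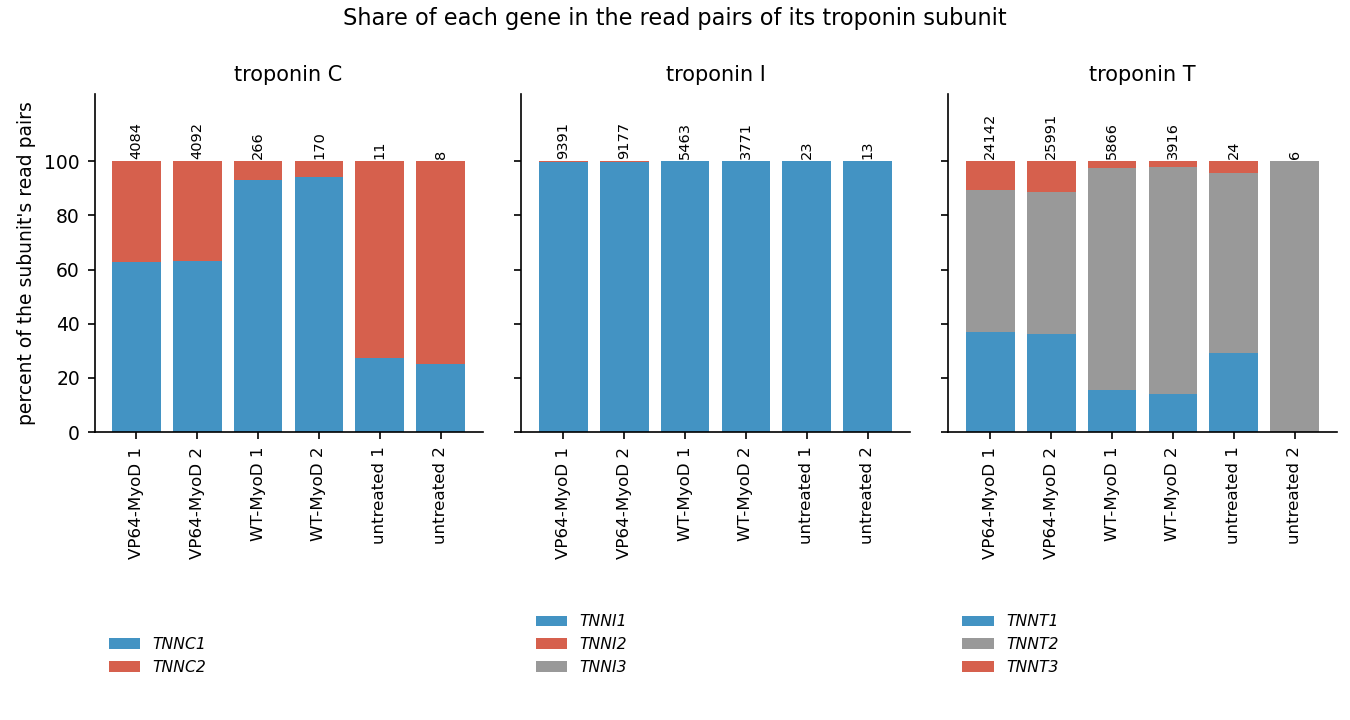
Percent of the read pairs of troponin C, troponin I and troponin T that came from each gene, as stacked bars, 1 per library, with the number of read pairs of the subunit above each bar. TNNC2 fills 37.3% and 36.7% of the troponin C bars in VP64-MyoD cells against 6.77% and 5.88% in WT-MyoD cells, and the untreated bars rest on 6 to 24 read pairs.

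The balance between subunits differed as well. Per kilobase of coding sequence, summed troponin C stood at 364.3 and 324.1 CPM in VP64-MyoD cells, against 19.5 and 17.1 CPM in WT-MyoD cells. Summed troponin I stood at 719.7 and 624.4 CPM in VP64-MyoD cells, against 343.9 and 327.0 CPM in WT-MyoD cells. Summed troponin T stood at 1259 and 1204 CPM in VP64-MyoD cells, against 243.9 and 223.8 CPM in WT-MyoD cells. Troponin I RNA was thus 1.98 and 1.93 times troponin C RNA in VP64-MyoD cells, against 17.7 and 19.1 times in WT-MyoD cells. Troponin T RNA was 3.46 and 3.71 times troponin C RNA in VP64-MyoD cells, against 12.5 and 13.1 times in WT-MyoD cells. The VP64-MyoD and WT-MyoD libraries did not overlap on either ratio. Per kilobase of whole transcript the long TNNI1 lowers the troponin I sum, to 76.7 and 66.4 CPM in VP64-MyoD cells, where troponin C stood at 246.4 and 219.2 CPM, and to 35.7 and 33.9 CPM in WT-MyoD cells, where troponin C stood at 13.2 and 11.6 CPM. On that scale troponin I was below troponin C in VP64-MyoD cells and above it in WT-MyoD cells. The level of the protein subunits was not measured.

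The thin filament that troponin sits on was tested as a list of 17 genes, of which 15 were in the fit. By edgeR, 12 were higher and 2 lower in VP64-MyoD than in untreated cells. In WT-MyoD against untreated cells 9 were higher and 2 lower, and in VP64-MyoD against WT-MyoD cells 12 were higher and 2 lower. Over all features the shares were, in that order, 33.0% higher and 30.0% lower, 25.7% higher and 22.2% lower, and 28.4% higher and 28.2% lower. The list's median log2 fold changes were 1.70 for VP64-MyoD over untreated, 0.66 for WT-MyoD over untreated and 1.65 for VP64-MyoD over WT-MyoD cells. NEB, which encodes the filament-length protein nebulin, had 1061 ± 109 CPM in VP64-MyoD cells, 64.9 ± 12.7 CPM in WT-MyoD cells and 0.755 ± 0.217 CPM in untreated cells (SD, n = 2 each). ACTA1, skeletal alpha-actin, had 222.0 ± 23.7 CPM in VP64-MyoD cells, 34.7 ± 2.9 CPM in WT-MyoD cells and 0.274 ± 0.066 CPM in untreated cells. ACTC1, the cardiac alpha-actin that developing skeletal muscle also uses, had 1616 ± 116 CPM in VP64-MyoD cells, 1086 ± 41 CPM in WT-MyoD cells and 12.8 ± 2.9 CPM in untreated cells, with the smaller log2 fold change of 0.57 between the MyoD forms (edgeR adjusted p = 0.000143). LMOD3, a filament-nucleating leiomodin, was higher in VP64-MyoD than in WT-MyoD cells by 4.01 ± 0.10 (edgeR adjusted p = 7.92e-14). The tropomyosin gene TPM1 was lowest in WT-MyoD cells, with 1046 ± 8 CPM in VP64-MyoD cells, 297.5 ± 14.3 CPM in WT-MyoD cells and 838.9 ± 17.3 CPM in untreated cells. Relative to untreated cells TPM1 fell by 1.495 on the log2 scale with WT-MyoD (edgeR adjusted p = 3.02e-11).

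Genes of fast and of slow fibres both rose, beside the fast and slow troponins. Of 13 fast fibre genes 11 were in the fit, and 11 were higher in VP64-MyoD than in untreated cells, 9 were higher in WT-MyoD than in untreated cells, and 10 were higher in VP64-MyoD than in WT-MyoD cells by edgeR. Of 11 slow fibre genes 9 were in the fit. By edgeR 9 were higher in VP64-MyoD and 7 in WT-MyoD than in untreated cells. In VP64-MyoD against WT-MyoD cells 7 were higher. Over all features 33.0%, 25.7% and 28.4% were higher in these comparisons, in the same order. PVALB, MYH1, MYH4, CASQ1 and MYBPC2 of the fast list and MYBPC1 of the slow list entered the fit only through their VP64-MyoD libraries. Their direction in the comparisons of VP64-MyoD was thus fixed by the filter, which was the same for the other lists. The median log2 fold change for VP64-MyoD over WT-MyoD was 2.81 in the fast list and 3.72 in the slow list, against 3.65 for the troponin members. MYL11, the fast regulatory light chain listed as MYLPF, had 280.0 ± 17.5 CPM in VP64-MyoD cells, 6.98 ± 1.27 CPM in WT-MyoD cells and 0.234 ± 0.009 CPM in untreated cells (SD, n = 2 each). MYBPC2, the fast myosin-binding protein C, had 27.9 ± 4.5 CPM in VP64-MyoD cells, 0.108 ± 0.053 CPM in WT-MyoD cells and 0.0227 ± 0.0321 CPM in untreated cells. Its log2 fold change for VP64-MyoD over WT-MyoD was 8.05 ± 0.26 (edgeR adjusted p = 9.15e-13). That value rests on 5 read pairs in the WT-MyoD group, and the untreated group held 1. MYH2, a fast myosin heavy chain, had 56.3 ± 4.3 CPM in VP64-MyoD cells, 2.30 ± 0.05 CPM in WT-MyoD cells and 0.656 ± 0.093 CPM in untreated cells. ENO3, muscle enolase, had 28.2 ± 0.9 CPM in VP64-MyoD cells, 6.54 ± 1.19 CPM in WT-MyoD cells, and 0.882 and 0.818 CPM in the 2 libraries of untreated cells, and MYL1, the fast essential light chain, had 12.5 ± 0.05 CPM in VP64-MyoD cells, 2.06 ± 0.23 CPM in WT-MyoD cells and 0.0200 ± 0.0284 CPM in untreated cells. ATP2A1, the fast-fibre calcium pump, had 88.2 ± 12.8 CPM in VP64-MyoD cells, 4.29 ± 0.08 CPM in WT-MyoD cells and 0.191 ± 0.013 CPM in untreated cells. Among slow genes MYOZ2, a Z-disc protein, had 50.6 ± 3.9 CPM in VP64-MyoD cells, 3.77 ± 0.04 CPM in WT-MyoD cells and 0.188 ± 0.074 CPM in untreated cells. MYL6B, a slow essential light chain, had 116.3 ± 8.1 CPM in VP64-MyoD cells, 17.5 ± 1.5 CPM in WT-MyoD cells and 11.04 ± 0.07 CPM in untreated cells. CASQ2, a calcium-binding protein of the sarcoplasmic reticulum, had 27.9 ± 0.3 CPM in VP64-MyoD cells, 2.01 ± 0.39 CPM in WT-MyoD cells and 0 in untreated cells. MYH7B, a myosin heavy chain, had 20.1 ± 0.7 CPM in VP64-MyoD cells, 0.576 ± 0.333 CPM in WT-MyoD cells and 0.482 ± 0.168 CPM in untreated cells, and its difference between WT-MyoD and untreated cells did not pass the test (edgeR adjusted p = 0.51). ANKRD2, a stress-responsive ankyrin repeat protein, had 2.39 ± 0.63 CPM in VP64-MyoD cells, 2.60 ± 0.17 CPM in WT-MyoD cells and 0.0428 ± 0.0038 CPM in untreated cells, and its difference between the MyoD forms did not pass the test (edgeR adjusted p = 0.645). MYH7, the slow myosin heavy chain, had 1.18 ± 0.16 CPM in VP64-MyoD cells, 1.13 ± 0.35 CPM in WT-MyoD cells and 0 in untreated cells, and its difference between the MyoD forms did not pass the test (edgeR adjusted p = 0.927).

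Reads of actin and myosin heavy chain genes can be split between near-identical copies, so those levels are uncertain. Of the developmental myosin genes, 3 of 3 were higher in each comparison by edgeR. Over all features 33.0% were higher for VP64-MyoD over untreated, 25.7% for WT-MyoD over untreated and 28.4% for VP64-MyoD over WT-MyoD cells. MYH3, embryonic myosin heavy chain, had 389.6 ± 13.6 CPM in VP64-MyoD cells, 11.96 ± 1.57 CPM in WT-MyoD cells and 1.84 ± 0.22 CPM in untreated cells (SD, n = 2 each). MYH8, perinatal myosin heavy chain, had 166.8 ± 18.6 CPM in VP64-MyoD cells, 33.8 ± 0.5 CPM in WT-MyoD cells and 0.0655 ± 0.0359 CPM in untreated cells. MYL4, an embryonic and atrial light chain, had 179.0 ± 11.2 CPM in VP64-MyoD cells, 24.0 ± 2.3 CPM in WT-MyoD cells and 0.0682 ± 0.0964 CPM in untreated cells.

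**Figure D4:**
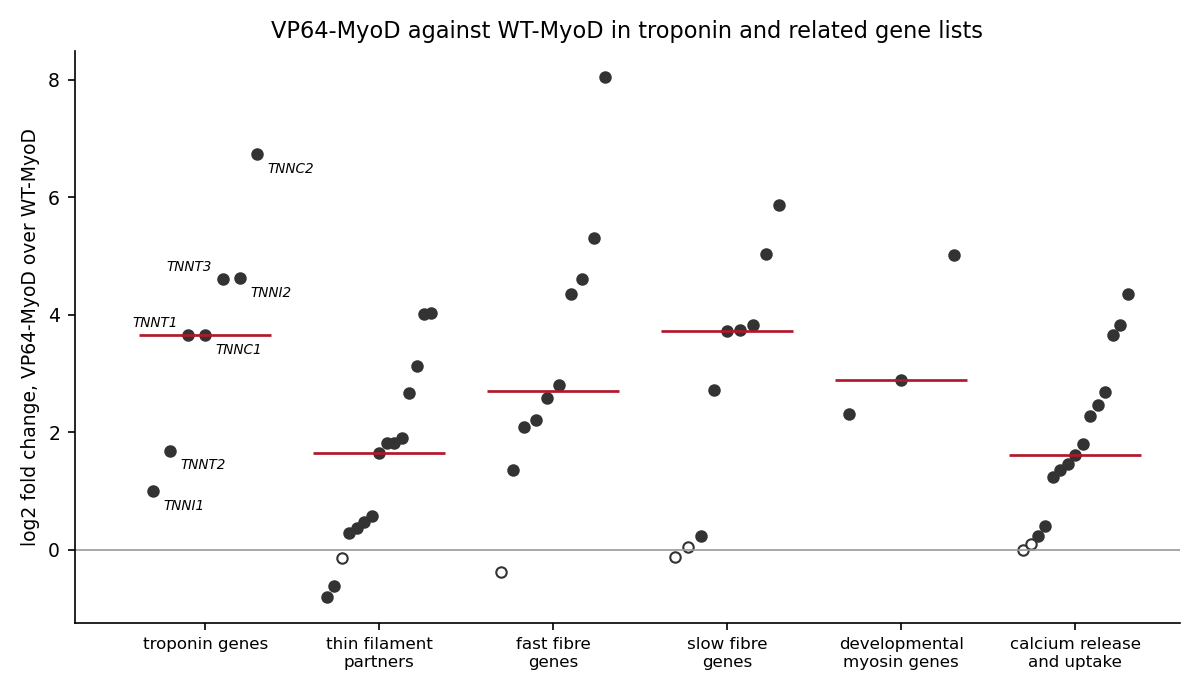
Log2 fold changes of VP64-MyoD over WT-MyoD cells for the genes of 6 lists, 1 point per gene in the fit, filled where the edgeR adjusted p was under 0.05 and open elsewhere, with a bar at the median of the plotted points; PVALB, at 0 in both WT-MyoD libraries, is left out. All 7 troponin genes lie between 1.00 and 6.74, TNNC2 being the highest of them.

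The calcium signal that troponin reads is released and cleared by another set of genes. Of 16 listed genes 15 were in the fit. By edgeR 14 were higher and 1 lower in VP64-MyoD than in untreated cells. In WT-MyoD against untreated cells 13 were higher and 1 lower, and 13 were higher in VP64-MyoD than in WT-MyoD cells. Over all features the shares were, in that order, 33.0% higher and 30.0% lower, 25.7% higher and 22.2% lower, and 28.4% higher. CASQ1, also in this list, entered the fit only through its VP64-MyoD libraries, so its direction in the comparisons of VP64-MyoD was fixed by the filter. RYR1, the skeletal calcium release channel, had 403.3 ± 31.7 CPM in VP64-MyoD cells, 63.1 ± 12.6 CPM in WT-MyoD cells and 0.168 ± 0.045 CPM in untreated cells (SD, n = 2 each). STAC3, an adaptor of the voltage sensor, had 181.4 ± 21.1 CPM in VP64-MyoD cells, 58.9 ± 0.9 CPM in WT-MyoD cells and 0.430 ± 0.098 CPM in untreated cells. CACNG1, the gamma subunit of that sensor, had 55.1 ± 1.8 CPM in VP64-MyoD cells, 4.34 ± 0.36 CPM in WT-MyoD cells and 0 in untreated cells. CACNA1S, the voltage sensor itself, had 22.9 ± 0.8 CPM in VP64-MyoD cells, 9.66 ± 0.23 CPM in WT-MyoD cells and 0.0227 ± 0.0321 CPM in untreated cells. The 1 lower gene was ASPH, which has many non-muscle transcripts, with log2 fold changes of -0.19 (edgeR adjusted p = 0.0154) for VP64-MyoD and -0.18 (edgeR adjusted p = 0.0262) for WT-MyoD over untreated cells. The lower call for VP64-MyoD was lost without VP64-MyoD replicate 1, VP64-MyoD replicate 2, untreated replicate 1 or untreated replicate 2, and that for WT-MyoD was lost without any 1 of the same 4 libraries and in a fit of only the 2 groups.

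Regulators known for setting fibre type were read as a list beside the shares over all features. Of 22 listed genes 20 were in the fit, and 13 were higher and 6 lower in VP64-MyoD than in untreated cells, 13 higher and 2 lower in WT-MyoD than in untreated cells, and 8 higher and 7 lower in VP64-MyoD than in WT-MyoD cells by edgeR. The shares over all features were, in that order, 33.0% higher and 30.0% lower, 25.7% higher and 22.2% lower, and 28.4% higher and 28.2% lower. The list's median log2 fold change for VP64-MyoD over WT-MyoD was 0.05, against 0.02 over all features. MYOG, the late myogenic factor, had 260.0 ± 29.1 CPM in VP64-MyoD cells, 37.2 ± 2.1 CPM in WT-MyoD cells and 0.274 ± 0.066 CPM in untreated cells (SD, n = 2 each). SOX6, known in mouse as a repressor of slow fibre genes, had 4.18 ± 0.89 CPM in VP64-MyoD cells, 0.323 ± 0.043 CPM in WT-MyoD cells and 0.0882 ± 0.0680 CPM in untreated cells, a log2 fold change of 3.67 ± 0.31 for VP64-MyoD over WT-MyoD (edgeR adjusted p = 8.53e-08). TEAD4, a factor that binds MCAT elements, had 54.7 ± 1.6 CPM in VP64-MyoD cells, 22.8 ± 0.8 CPM in WT-MyoD cells and 13.0 ± 0.8 CPM in untreated cells. TEAD1, of the same family, had 473.7 and 487.2 CPM in VP64-MyoD, 457.2 and 526.7 in WT-MyoD, and 600.0 and 606.0 in untreated cells. It was lower than untreated with VP64-MyoD (edgeR adjusted p = 0.000997) and WT-MyoD (edgeR adjusted p = 0.00326). Between the MyoD forms it did not pass the test (edgeR adjusted p = 0.711). HDAC9, a corepressor of MEF2, fell by 1.14 on the log2 scale in VP64-MyoD relative to WT-MyoD cells (edgeR adjusted p = 4.77e-08). MEF2C, an activator of muscle genes, had 93.5 ± 1.7 CPM in VP64-MyoD cells, 61.1 ± 0.1 CPM in WT-MyoD cells and 19.96 ± 0.56 CPM in untreated cells. PRDM1, in zebrafish a repressor of the fast programme, had 20.2 ± 0.8 CPM in VP64-MyoD cells, 18.5 ± 1.1 CPM in WT-MyoD cells and 5.10 ± 0.21 CPM in untreated cells, and MEF2D had 246.9 ± 16.4 CPM in VP64-MyoD cells, 249.2 ± 26.7 CPM in WT-MyoD cells and 134.2 ± 6.4 CPM in untreated cells. MYF6 was at 0 in all 6 libraries. EYA1 entered the fit only through its VP64-MyoD libraries, so its direction in the comparisons of VP64-MyoD was fixed by the filter.

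The genes with the most similar pattern were found by the root-mean-square distance between centred log2(CPM + 0.1) profiles over the 6 libraries, over all features in the fit. Nearest to TNNC1 were KLHL31 at 0.0713, CACNG1 at 0.0860 and CKM at 0.190. Nearest to TNNC2 were HS6ST2 at 0.214, KISS1 at 0.234 and CACNA1E at 0.248. Nearest to TNNI1 were HEYL at 0.211, CHRNA1 at 0.306 and SHD at 0.310. TNNI2, with few reads, lay nearest SLC8A2 at 0.0713, LRTM1 at 0.122 and LRRC14B at 0.155. Nearest to TNNT1 were CHRND at 0.430, ACTN2 at 0.568 and RYR1 at 0.640, and nearest to TNNT2 were CHRNA1 at 0.214, UNC45B at 0.217 and F13A1 at 0.288. Nearest to TNNT3 were IGSF22 at 0.255 and MYL11 at 0.399, and the third was a non-coding transcript with no symbol at 0.445. Among the members themselves the closest pairs were TNNC1 with TNNT3 at 0.465 and TNNI1 with TNNT2 at 0.503, and the most distant was TNNI2 with TNNT2 at 3.28. The distances are descriptions over 6 libraries in 3 groups, so they mostly record the 3 group levels. For genes at 0 in untreated cells, such as KLHL31 and CACNG1, the untreated level is set by the added 0.1 CPM.

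Chromosomes 1, 11 and 19 each hold a troponin I gene and a troponin T gene, and the coding genes next to them were read from the RefSeq table. On chromosome 1 the order is PKP1, TNNT2, LAD1, TNNI1 and PHLDA3. PKP1, the desmosomal plakophilin, had 43.7 ± 1.7 CPM in VP64-MyoD cells, 1.57 ± 0.08 CPM in WT-MyoD cells and 0.0200 ± 0.0284 CPM in untreated cells (SD, n = 2 each), and a log2 fold change of 4.79 between the MyoD forms (edgeR adjusted p = 1.62e-13). LAD1, which encodes ladinin of epithelial anchoring filaments and lies between TNNT2 and TNNI1, had 7.04 ± 0.99 CPM (346 read pairs) in VP64-MyoD cells, 2.72 ± 0.40 CPM (135 read pairs) in WT-MyoD cells and 0 in untreated cells. TNNT2 and LAD1 transcripts share 53 of the 1250 stretches of 31 bases of TNNT2, and the libraries do not mark the strand, so reads from those stretches cannot be assigned to one gene. PHLDA3, beyond TNNI1, had 66.9 CPM in VP64-MyoD cells, 102.3 CPM in WT-MyoD cells and 74.4 CPM in untreated cells.

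On chromosome 19, TNNT1 and TNNI3, with its 1 read pair, are next to each other, between PPP1R12C and DNAAF3. PPP1R12C, a myosin phosphatase subunit, fell by 0.62 on the log2 scale in VP64-MyoD relative to untreated cells (edgeR adjusted p = 1.65e-06), and DNAAF3 did not pass the test in any of the 3 comparisons (lowest edgeR adjusted p = 0.154). Next to TNNI2 on chromosome 11, LSP1, a leukocyte actin-binding protein, had 16.0 ± 2.9 CPM in VP64-MyoD cells, 8.19 ± 0.39 CPM in WT-MyoD cells and 0.194 ± 0.047 CPM in untreated cells. SYT8, on the other side of TNNI2, had 11 read pairs in VP64-MyoD cells, 1 in WT-MyoD cells and 0 in untreated cells. Next to TNNT3, MRPL23 had 10.3 CPM in VP64-MyoD cells, 8.52 CPM in WT-MyoD cells and 6.88 CPM in untreated cells. Next to TNNC1 on chromosome 3, SEMA3G, a secreted semaphorin, had 8.62 ± 0.21 CPM in VP64-MyoD cells, 3.17 ± 0.15 CPM in WT-MyoD cells and 0.498 ± 0.195 CPM in untreated cells, while NISCH fell by 0.81 on the log2 scale with VP64-MyoD relative to untreated cells (edgeR adjusted p = 2.76e-08). Next to TNNC2 on chromosome 20, UBE2C, a cell division ubiquitin-conjugating enzyme, had 4.97 CPM in VP64-MyoD cells, 5.83 CPM in WT-MyoD cells and 1.19 CPM in untreated cells, and SNX21 had 33.8 CPM in VP64-MyoD cells, 41.2 CPM in WT-MyoD cells and 32.6 CPM in untreated cells.

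**Figure D5:**
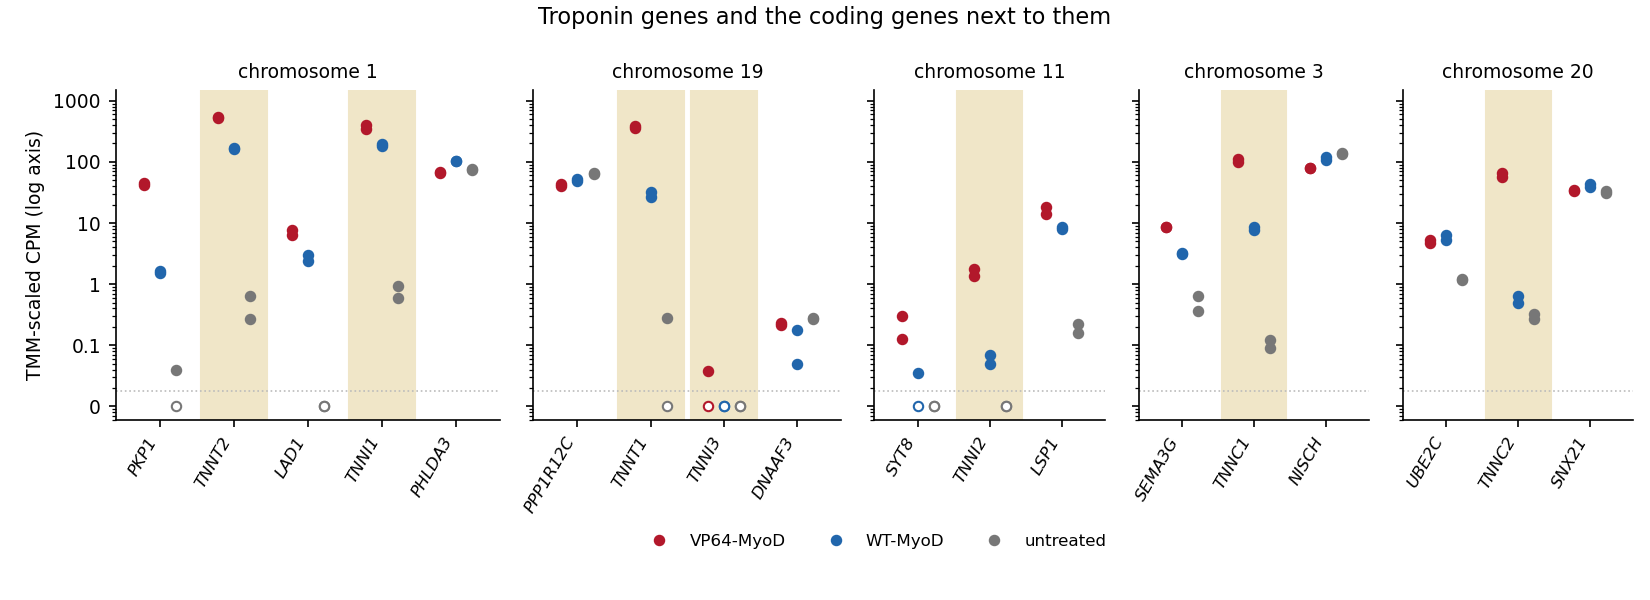
TMM-scaled CPM on a log axis for troponin genes (shaded) and the coding genes next to them in chromosome order, with 1 point per library for the VP64-MyoD, WT-MyoD and untreated groups and open points below the dotted line for 0 read pairs; distances between genes are not drawn. TNNT3 and the genes next to it are not drawn. TNNT1 reaches 370.4 CPM on average in VP64-MyoD cells while TNNI3 beside it has 1 read pair. PKP1 and LAD1 around TNNT2 are higher in the VP64-MyoD libraries than in the other libraries.

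Alternative splicing of troponin T could not be read from the transcript rows. In VP64-MyoD replicate 1 the 3 rows of TNNT1 held between 29.9% and 36.6% of its counts, and the 4 rows of TNNT2 between 20.2% and 32.6%. In WT-MyoD replicate 1 the rows of TNNT1 held between 31.1% and 36.7%, and those of TNNT2 between 19.9% and 30.1%. These shares lie near the even split of 33.3% and 25.0% in both groups. How reads shared by isoforms were assigned is not given in the sources used here, so the rows are not used as isoform levels. No member shared a stretch of 31 bases with another member in the GENCODE 29 transcripts, while 3.10% of those of TNNI1 also occur in other genes. Of the 810 stretches of TNNI3, 423 (52.2%) are shared with AC010327.1, an annotated gene, so reads from them may not have been assigned to TNNI3, and its near-zero count is uncertain to that extent.

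In the authors' deposited table of 3135 transcripts, 10 rows belong to 5 troponin genes, with 1 row for TNNC1, 1 for TNNI1, 3 for TNNT1, 4 for TNNT2 and 1 for TNNT3. That deposited table gives TNNC1 a log2 fold change over untreated of 9.95 with VP64-MyoD and 6.30 with WT-MyoD, and TNNI1 8.96 with VP64-MyoD and 7.96 with WT-MyoD. For the TNNT3 row the authors' deposited table gives 10.35 with VP64-MyoD and 5.73 with WT-MyoD. That row is 1 of the 4 rows of TNNT3 and holds the gene's only untreated read pair, so its values are not those of the sum over rows. The 4 TNNT2 rows range from 9.78 to 10.61 with VP64-MyoD and from 8.11 to 8.94 with WT-MyoD in the authors' deposited table.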

How the data were processed

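Polyadenylated RNA of 6 libraries was sequenced after transposase tagmentation, which marks no strand. CASAVA, Bowtie 0.12.9 and DESeq 1.10.1 are named, with genome build hg19, per the submitters' processing notes. The deposited main table has 1 row per RefSeq transcript with raw counts of the 6 libraries. All of its values are even numbers, and read pairs are counts divided by 2. The authors' deposited table of comparisons gives, per the file headers, a signal for each group (a mean of counts divided by size factors), a ratio or fold change, its log2 and a p-value. It entered no test, and only its signals' log2 fold changes are quoted.

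Of 40710 rows, 39324 were matched to a symbol through a RefSeq gene table and 517 through GENCODE 29. The 868 rows without a symbol, which held between 0.601% and 0.744% of counts, stayed in the fit as features of their own. Rows were summed per symbol. The test was the two-sided quasi-likelihood test of edgeR 4.0.16 (R 4.3.3) with TMM factors, after filterByExpr at a minimum count of 10 and a minimum total of 15, in 1 fit over the 6 libraries with 3 residual degrees of freedom. Calls were made at a Benjamini-Hochberg adjusted p under 0.05 over all features. DESeq2 1.42.0 and limma 3.58.1 (voom) were alternatives, beside other scalings and filters, the 2 groups alone, each library left out, a replicate block, the transcript row with the most counts and, chosen after seeing the data, read pairs in place of reads. The fit was tested on simulated data. Lengths are means over the GENCODE 29 transcripts matched to a gene's rows. Intervals are exact, at 95%, and a count of 0 was given a floor of 3 read pairs.

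The members and gene lists were chosen with earlier results of these data known. The text names the 8 members, the 3 features nearest to each, for each list up to 4 genes per comparison with the lowest adjusted p (for markers of other cell types a part of these), and the coding genes next to each member. ASPH, MYF6, TBX20, TEAD1, SNAP25, RBFOX3 and the cardiac markers at 0 were named after their values were seen. So were the list genes named only for how they entered the fit.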

Additional observations from a re-analysis of the deposited data

How the results depend on the processing

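Of 335 values of members under an alternative, 321 kept their direction and side of the threshold, 14 lost the call and none changed sign. The 14 were TNNC2 and TNNI2 for WT-MyoD over untreated cells. The count of members called stayed at 7 of 7 under every alternative for both comparisons of VP64-MyoD, and lay between 5 and 7 for WT-MyoD over untreated cells. In the main fit TNNI2 was among the 7 only through its VP64-MyoD libraries. Taking the transcript row with the most counts in place of the sum moved the shares of reads, by construction, since the genes have different numbers of rows. In VP64-MyoD cells TNNI1 then had 99.84% of troponin I (99.58% with sums), TNNI2 0.151% (0.414%), TNNT1 39.83% of troponin T (36.49%), TNNT2 50.62% (52.47%) and TNNT3 9.55% (11.04%). In WT-MyoD cells TNNT1 then had 17.51% (14.75%) and TNNT2 80.53% (82.99%). Of the list counts, smooth muscle markers higher in WT-MyoD than in untreated cells were 4 with no filter on low counts (2 with it), and fibre type regulators lower in WT-MyoD than in untreated cells were 1 by the row with the most counts (2 with sums). Counting only bases before the start left 4 of the 5 E-boxes of TNNT2. Differences between replicates 1 and 2 correlated weakly across groups over 10861 genes. The values were -0.064 for VP64-MyoD and WT-MyoD, 0.04 for VP64-MyoD and untreated, and 0.134 for WT-MyoD and untreated cells. This cannot exclude that samples with the same replicate number shared a batch, and the main fit assumed no pairing. With a replicate block 7 of 7 members were called for VP64-MyoD over untreated cells and for VP64-MyoD over WT-MyoD cells, and 6 of 7 for WT-MyoD over untreated cells, where TNNI2 had an edgeR adjusted p of 0.056. Depth limits TNNI2 in WT-MyoD cells, TNNI3 in all libraries and every troponin gene in untreated cells, where the whole family had 58 and 27 read pairs.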

Other observations

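Markers of other cell types were read beside the troponin genes, and their part in the troponin values was not tested. Summed neuronal markers (3 of 5 in the fit) stood at 76.1 and 69.3 CPM in VP64-MyoD cells, 18.3 and 17.5 CPM in WT-MyoD cells, and 6.54 and 8.04 CPM in untreated cells. Most of this was STMN2, a microtubule regulator, which had 63.1 ± 4.6 CPM in VP64-MyoD cells, 9.38 ± 0.32 CPM in WT-MyoD cells and 3.70 ± 0.24 CPM in untreated cells (SD, n = 2 each). SYT1, a synaptic vesicle protein, had 7.44 ± 0.11 CPM in VP64-MyoD cells, 3.66 ± 0.42 CPM in WT-MyoD cells and 0.0200 ± 0.0284 CPM in untreated cells. MAP2, a dendritic microtubule protein, had 2.03 ± 0.11 CPM in VP64-MyoD cells, 4.73 ± 0.05 CPM in WT-MyoD cells and 3.53 ± 0.92 CPM in untreated cells. Its log2 fold change was -0.80 for VP64-MyoD over untreated (edgeR adjusted p = 0.00238), a call lost without untreated replicate 2 or with the transcript row with the most counts, and -1.22 for VP64-MyoD over WT-MyoD cells (edgeR adjusted p = 5.7e-05). SNAP25 and RBFOX3 had at most 0.146 CPM in any library. Over all features, 33.0% were higher and 30.0% lower in VP64-MyoD than in untreated cells. In WT-MyoD against untreated cells the shares were 25.7% higher and 22.2% lower. Of 8 smooth muscle markers, 4 were higher and 2 lower in VP64-MyoD than in untreated cells by edgeR. In WT-MyoD against untreated cells 2 of them were higher and 4 lower. Without VP64-MyoD replicate 1, 2 in place of 4 were higher in VP64-MyoD cells. Among them MYOCD, a coactivator of smooth and cardiac muscle genes, had 4.26 ± 0.47 CPM in VP64-MyoD cells, 0.336 ± 0.075 CPM in WT-MyoD cells and 0.148 ± 0.017 CPM in untreated cells. CNN1, a smooth muscle calponin, had 5.47 ± 0.14 CPM in VP64-MyoD cells, 1.89 ± 0.57 CPM in WT-MyoD cells and 29.5 ± 0.3 CPM in untreated cells. Endothelial markers summed to 10.9 and 11.4 CPM in VP64-MyoD cells, 8.62 and 8.17 CPM in WT-MyoD cells, and 11.6 and 11.4 CPM in untreated cells. Epithelial markers summed to 4.64 and 3.74 CPM in VP64-MyoD cells, 2.65 and 2.97 CPM in WT-MyoD cells, and 12.2 and 11.1 CPM in untreated cells. Of the 10 fibroblast markers, 7 were lower and 2 higher in VP64-MyoD than in untreated cells by edgeR. In WT-MyoD against untreated cells 4 were lower and 4 higher. The shares over all features were those given above with the smooth muscle markers. DCN, which encodes the matrix proteoglycan decorin, had 375.2 ± 5.0 CPM in VP64-MyoD cells, 1543 ± 24 CPM in WT-MyoD cells and 974.6 ± 47.7 CPM in untreated cells.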
